A study of Homo sapiens with 3 samples.

Results

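The transcripts described here are those of the human mitochondrial chromosome and of 6 of its nuclear copies in LNCaP, an established androgen-responsive human prostate cancer cell line. The rule that chose them names rows by annotation and applies no threshold to measured values, but it was written with earlier results of these data known. They were the 37 rows of the count table on the mitochondrial chromosome (13 mRNAs, 2 rRNAs and 22 tRNAs) and 6 pseudogene copies on chromosome 1, MTND1P23, MTND2P28, MTCO1P12, MTCO2P12, MTATP6P1 and MTCO3P12, together 43 of the 58884 rows of the table. The libraries came from LNCaP cells kept in PPAT-CM (labelled tumor; the series title expands PPAT as periprostatic adipose tissue), in PVAT-CM (labelled normal; PVAT is not expanded) or in control-CM, where CM stands for conditioned medium. After 24 h in complete medium, all cells spent 72 h in medium of which 50% was one of these media, with 2% fetal bovine serum. There was 1 library per medium, so no difference below has a replicate check and none was tested. The series compares RNA expression of the cells between the 3 media.

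Mitochondrial DNA is a small circle that is transcribed from both strands into long precursor RNAs. The tRNAs lie between most mRNAs and rRNAs, and cutting them out releases the mature transcripts. Most mitochondrial mRNAs then receive a short poly(A) tail, which completes the stop codon of those whose gene ends in a partial one, while MT-ND6 mRNA, from the other strand, is known to lack the tail. The mRNAs encode subunits of respiratory chain complexes I, III and IV and of ATP synthase (complex V), the rRNAs form the mitochondrial ribosome with imported proteins, and the tRNAs serve its translation. Copies of mitochondrial DNA also sit in nuclear chromosomes, and reads from a recent copy can hardly be told from reads of the mitochondrial gene.

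The annotated ends of the 13 mRNAs show how much of each stop codon the gene encodes. Below are the last 18 annotated bases of each, 5′ to 3′ on the coding strand (GENCODE release 29 transcripts, GRCh38), with the stop codon, or the part of it that the gene encodes, in capitals. In 6 of them the gene encodes only T or TA, and in the other 7 all 3 bases. The last base of MT-ATP6 is also the first base of MT-CO3, so whether its cut mRNA keeps that base is not shown here.
MT-ND1: cattccccctcaaaccTA
MT-ND2: ttatactaataatcttaT
MT-CO1: gtatacataaaatctAGA
MT-CO2: cccgtatttaccctaTAG
MT-ATP8: ttgcccccacaatccTAG
MT-ATP6: ctgcacgacaacacaTAA
MT-CO3: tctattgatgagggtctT
MT-ND3: gattagactgaaccgaaT
MT-ND4L: aacctactccaatgcTAA
MT-ND4: ttaccgggttttcctctT
MT-ND5: ctactcctaatcacaTAA
MT-ND6: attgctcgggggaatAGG
MT-CYB: aaatactcaaatgggccT

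The copies differ from their mitochondrial counterparts at few bases, which bears on every count given for them. The pair with the most reads on the copy and one with few are shown over 200 bases each, with the differing bases in capitals. They are MT-ATP6 (chrM:8527-8726, plus strand) with MTATP6P1 (chr1:633696-633895, plus strand), and MT-CO2 (chrM:7866-8065, plus strand) with MTCO2P12 (chr1:633037-633236, plus strand), all in GRCh38 from GENCODE release 29 transcripts. Each window has the most differences of any window of its pair whose alignment holds no gap, and both hold 5.
MT-ATP6: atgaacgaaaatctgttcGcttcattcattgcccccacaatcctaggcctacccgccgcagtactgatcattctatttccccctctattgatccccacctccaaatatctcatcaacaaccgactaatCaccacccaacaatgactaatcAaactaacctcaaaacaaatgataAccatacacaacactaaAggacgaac
MTATP6P1: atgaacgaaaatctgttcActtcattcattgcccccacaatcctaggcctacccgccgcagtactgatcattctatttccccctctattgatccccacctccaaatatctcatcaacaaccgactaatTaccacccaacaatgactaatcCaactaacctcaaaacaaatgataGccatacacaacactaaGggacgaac
MT-CO2: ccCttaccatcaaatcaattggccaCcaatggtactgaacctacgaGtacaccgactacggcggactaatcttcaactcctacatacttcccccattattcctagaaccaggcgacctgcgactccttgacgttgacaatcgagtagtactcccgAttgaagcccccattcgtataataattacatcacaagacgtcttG
MTCO2P12: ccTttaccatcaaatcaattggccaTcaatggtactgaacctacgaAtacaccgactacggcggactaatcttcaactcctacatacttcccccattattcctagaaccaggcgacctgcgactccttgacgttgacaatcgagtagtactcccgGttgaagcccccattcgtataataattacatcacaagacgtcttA

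The tRNAs are shown by the 4 with the highest counts, with the anticodon in capitals. MT-TC (cysteine, chrM:5761-5826), MT-TN (asparagine, chrM:5657-5729) and MT-TP (proline, chrM:15956-16023) lie on the minus strand, and MT-TL1 (a leucine tRNA, chrM:3230-3304) lies on the plus strand, in GRCh38.
MT-TC: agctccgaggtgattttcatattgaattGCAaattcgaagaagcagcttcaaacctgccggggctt
MT-TN: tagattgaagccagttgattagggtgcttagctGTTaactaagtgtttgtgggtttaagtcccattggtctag
MT-TP: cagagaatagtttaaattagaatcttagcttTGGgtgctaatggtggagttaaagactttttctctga
MT-TL1: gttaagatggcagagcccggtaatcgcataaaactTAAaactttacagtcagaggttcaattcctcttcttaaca

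Library totals were 16965584 counts in PPAT-CM, 14174241 in PVAT-CM and 16534649 in control-CM. Of 8 markers of luminal prostate cells all were measured, with summed counts of 41705 in PPAT-CM, 46542 in PVAT-CM and 48215 in control-CM. Single markers differed more than the sum: KLK3, KLK2 and TMPRSS2, known androgen-regulated genes, were 2.72-fold, 2.58-fold and 2.66-fold lower in PPAT-CM than in control-CM, and TRPM8 was 2.21-fold higher. The part of these marker differences in the mitochondrial values was not tested. Adipocyte markers summed to between 180 and 234 counts over 8 genes, with ADIPOQ, LEP, FABP4 and LPL at 0 in every library. Among the rest, PLIN1, a coat protein of lipid droplets, had 89 counts in PPAT-CM, 27 in PVAT-CM and 13 in control-CM, and CFD had 111 in PPAT-CM, 170 in PVAT-CM and 133 in control-CM. The 8 leukocyte markers summed to between 14 and 21 counts with PTPRC and CD3E at 0, the 8 fibroblast markers to between 367 and 783, mostly COL1A1, with DCN, THY1 and 3 others at 0, and the 6 endothelial markers to between 23 and 42. Ratios between libraries below use counts scaled by edgeR's trimmed mean of M-values (TMM). With them the median log2 ratio of the 12256 genes with a mean count of at least 50 was 0.03 for PPAT-CM over control-CM, 0.02 for PVAT-CM over control-CM and 0.02 for PPAT-CM over PVAT-CM.

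Mitochondrial RNA took a smaller part of the counts in PPAT-CM and PVAT-CM than in control-CM, and the smallest in PPAT-CM. The 37 mitochondrial rows held 15.5% of all counts in PPAT-CM, 21.1% in PVAT-CM and 30.8% in control-CM. At this depth the 95% exact binomial intervals of the 3 shares do not touch (15.49 to 15.52%, 21.09 to 21.13% and 30.82 to 30.86% in the same media). All intervals here cover counting error only: without molecular identifiers a read is not an independent molecule, and no interval holds the spread between cultures. Fewer mitochondrial transcripts per cell, fewer genomes per cell and a larger pool of nuclear RNA cannot be told apart in such shares.

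The same order held in each RNA class. The 13 mRNAs took 10.4% of counts in PPAT-CM, 14.4% in PVAT-CM and 21.6% in control-CM. The rRNAs took 5.03% in PPAT-CM, 6.63% in PVAT-CM and 9.06% in control-CM. The tRNAs, which are short and without poly(A) tails, took 0.0829% in PPAT-CM, 0.122% in PVAT-CM and 0.170% in control-CM. The library kit is one for mRNA, so what it caught of rRNAs and tRNAs is not their abundance in the cell. The 6 chromosome 1 copies took 0.132% in PPAT-CM, 0.171% in PVAT-CM and 0.267% in control-CM. The row with the highest count was MT-RNR2 in every library, and mitochondrial rows made up 11 of the 20 highest rows in PPAT-CM, 13 in PVAT-CM and 14 in control-CM.

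**Figure D1:**
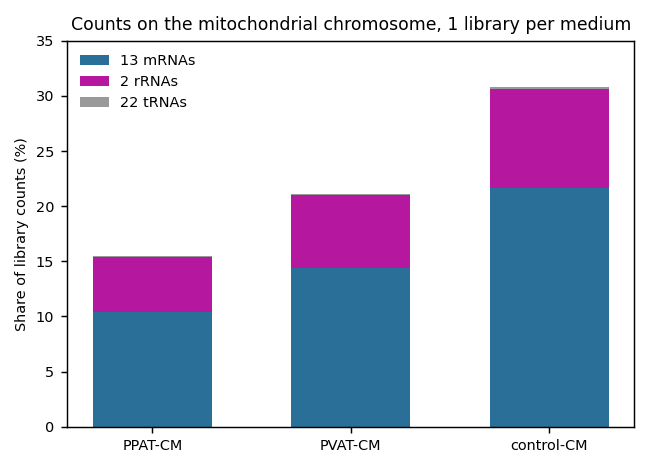
Percent of each library's counts (vertical axis) on the 13 mRNAs, 2 rRNAs and 22 tRNAs of the mitochondrial chromosome, stacked, in PPAT-CM, PVAT-CM and control-CM with 1 library per bar. The bars reach 15.5% in PPAT-CM, 21.1% in PVAT-CM and 30.8% in control-CM, and the tRNA layer, at most 0.170%, is barely visible.

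Against control-CM, every mitochondrial mRNA was lower in PPAT-CM. All 13 were at least 1.5-fold lower, where 8.71% of the 12256 measured genes were, and all 13 were at least 2-fold lower, where 2.74% of measured genes were. Their median log2 ratio was -1.29, with an SD of 0.16 among the 13 and a range from -1.60 to -1.05, beside 0.03 for all measured genes. These genes share precursor RNAs and a library, so they are not 13 independent measurements. The 85 nuclear genes with counts at least as high as the lowest mitochondrial mRNA had a median log2 ratio of 0.07, and 3 of them (3.53%) were at least 1.5-fold lower.

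In PVAT-CM against control-CM the mRNAs were also lower, by less. Here 12 of 13 were at least 1.5-fold lower, where 3.49% of measured genes were, and 0 were at least 2-fold lower, where 0.424% of measured genes were. The median log2 ratio was -0.70 (SD 0.09 among the 13, range -0.79 to -0.46), beside 0.02 for all measured genes and 0.22 for the 85 abundant nuclear genes, of which 0 (0%) were at least 1.5-fold lower. With plain library totals in place of TMM factors the number at least 1.5-fold lower was 6 of 13 and the median -0.56. Both comparisons use the same control-CM library, so a shift in that library would move both.

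PPAT-CM against PVAT-CM does not involve the control-CM library, and in it all 13 mRNAs were again lower in PPAT-CM. The median log2 ratio was -0.55 (SD 0.19, range -1.14 to -0.39), beside 0.02 for all measured genes and -0.12 for the 85 abundant nuclear genes. By at least 1.5-fold, 4 of 13 were lower (MT-ND3, MT-ND2, MT-CO2 and MT-CYB), where 6.07% of measured genes were, and 1 of 13 (MT-ND3) by at least 2-fold, where 1.47% were. That count rests on the threshold and the scaling: it was 10 of 13 with upper quartile factors and 13 of 13 at a lower threshold. Among the abundant nuclear genes 4 (4.71%) were at least 1.5-fold lower.

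**Figure D2:**
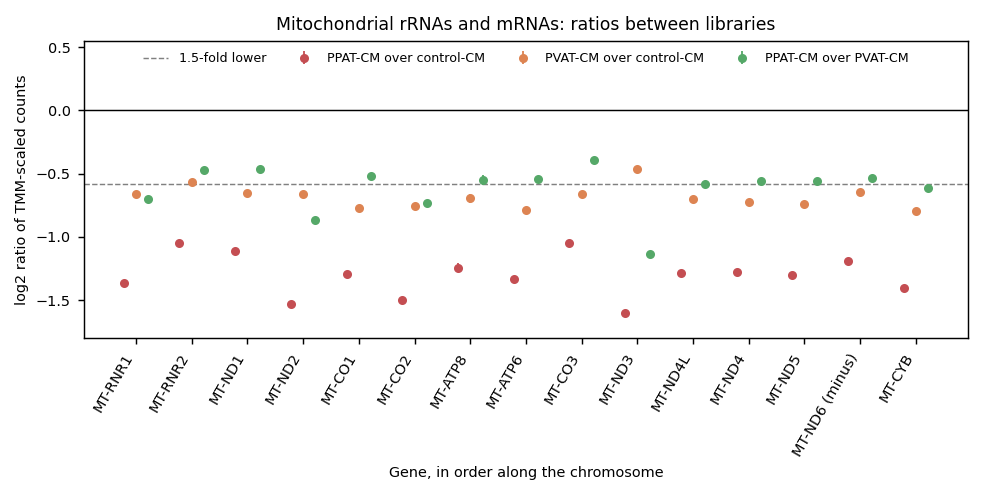
Log2 ratios of TMM-scaled counts (vertical axis) for the rRNAs and mRNAs in their order along the mitochondrial chromosome, for PPAT-CM over control-CM, PVAT-CM over control-CM and PPAT-CM over PVAT-CM, with 95% counting intervals that are mostly narrower than the points. Every point lies below 0, and MT-ND2, MT-CO2, MT-ND3 and MT-RNR1 are the lowest for PPAT-CM over control-CM, between -1.60 and -1.37, together with MT-CYB at -1.40.

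Complex I, the NADH dehydrogenase that feeds electrons into the chain, has 7 subunits encoded in mitochondrial DNA. MT-ND3, a small membrane subunit, showed the widest gap of the 13 mRNAs between PPAT-CM and control-CM. It had 45260 counts in PPAT-CM, 77175 in PVAT-CM and 113167 in control-CM, which after scaling was 3.03-fold lower in PPAT-CM than in control-CM (95% interval 3.00 to 3.06). In PVAT-CM it was 1.38-fold lower than in control-CM (1.37 to 1.39), the only mRNA of the 13 that did not reach 1.5-fold there. Its ratio between PPAT-CM and PVAT-CM, 2.20-fold lower in PPAT-CM (2.17 to 2.22), was thus further from 1 than that of any other mRNA.

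MT-ND2 had 78077 counts in PPAT-CM, 110457 in PVAT-CM and 186233 in control-CM. It was 2.89-fold lower in PPAT-CM (2.87 to 2.92) and 1.58-fold lower in PVAT-CM than in control-CM, and 1.82-fold lower in PPAT-CM against PVAT-CM (1.81 to 1.84). The neighbouring gene at the start of the mRNA region, MT-ND1, differed least within complex I between PPAT-CM and control-CM. MT-ND1 had 95557 counts in PPAT-CM, 102203 in PVAT-CM and 170718 in control-CM, or 2.17-fold lower in PPAT-CM (2.15 to 2.18) and 1.57-fold lower in PVAT-CM than in control-CM.

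The remaining complex I mRNAs stayed close to the median of the 13. MT-ND4 had 244104 counts in PPAT-CM, 277777 in PVAT-CM and 487014 in control-CM, 2.42-fold lower in PPAT-CM and 1.65-fold lower in PVAT-CM than in control-CM. MT-ND4L, whose end overlaps the start of MT-ND4 by 7 bases in the same RNA, had 44024 counts in PPAT-CM, 51191 in PVAT-CM and 88253 in control-CM. Within this shared RNA the counts of the 2 genes kept their proportion. The MT-ND4L to MT-ND4 count ratio was 0.180 in PPAT-CM, 0.184 in PVAT-CM and 0.181 in control-CM. It also depends on how the authors assigned reads over the shared bases. MT-ND5 had 94338 counts in PPAT-CM, 107839 in PVAT-CM and 191880 in control-CM, 2.47-fold lower in PPAT-CM and 1.67-fold lower in PVAT-CM than in control-CM.

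MT-CYB, the cytochrome b of complex III and the only subunit of that complex from this genome, had 137988 counts in PPAT-CM, 163330 in PVAT-CM and 301364 in control-CM. It was 2.65-fold lower in PPAT-CM (2.63 to 2.66) and 1.73-fold lower in PVAT-CM than in control-CM (1.72 to 1.74). The PVAT-CM ratio was the one furthest from 1 among the 13 mRNAs in that comparison.

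The 3 catalytic-core subunits of complex IV, cytochrome c oxidase, differed unequally. MT-CO1, the mRNA with the most counts, had 447389 in PPAT-CM, 497968 in PVAT-CM and 903454 in control-CM, 2.45-fold lower in PPAT-CM (2.44 to 2.46) and 1.71-fold lower in PVAT-CM than in control-CM. MT-CO2 had 162164 counts in PPAT-CM, 209299 in PVAT-CM and 376675 in control-CM, 2.82-fold lower in PPAT-CM (2.80 to 2.83) and 1.69-fold lower in PVAT-CM than in control-CM. MT-CO3 had 271067 counts in PPAT-CM, 275732 in PVAT-CM and 462654 in control-CM. Its 2.07-fold difference between PPAT-CM and control-CM (2.06 to 2.08, lower in PPAT-CM) was the smallest among the mRNAs, and its ratio between PPAT-CM and PVAT-CM was 1.31-fold lower in PPAT-CM (1.31 to 1.32).

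Complex V, the ATP synthase, has its MT-ATP8 and MT-ATP6 subunits on 1 bicistronic mRNA in which the genes overlap by 46 bases. MT-ATP6 had 106353 counts in PPAT-CM, 120452 in PVAT-CM and 220583 in control-CM, 2.51-fold lower in PPAT-CM (2.50 to 2.53) and 1.72-fold lower in PVAT-CM than in control-CM. MT-ATP8 had 9357 counts in PPAT-CM, 10617 in PVAT-CM and 18287 in control-CM, 2.37-fold lower in PPAT-CM (2.31 to 2.43) and 1.62-fold lower in PVAT-CM than in control-CM. Reads over the shared bases fit both genes, so the MT-ATP8 to MT-ATP6 count ratio, 0.0880 in PPAT-CM, 0.0881 in PVAT-CM and 0.0829 in control-CM, depends on how the authors assigned them.

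Grouped by complex, the medians of the log2 ratios lay close together. For PPAT-CM over control-CM they were -1.28 for the 7 complex I mRNAs, -1.40 for MT-CYB, -1.29 for the 3 of complex IV and -1.29 for the 2 of complex V. For PVAT-CM over control-CM the same groups stood at -0.66, -0.79, -0.76 and -0.74. For PPAT-CM over control-CM the spread was wider within complexes I and IV than between complexes, from MT-ND3 at -1.60 to MT-ND1 at -1.11 for complex I.

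Shares among the mRNA counts, which no scaling between libraries can move, show the same unequal members. MT-CO3 took 15.4% of the mRNA counts in PPAT-CM, 13.5% in PVAT-CM and 12.9% in control-CM. MT-CO2 took 9.20% in PPAT-CM, 10.3% in PVAT-CM and 10.5% in control-CM. MT-ND3 took 2.57% in PPAT-CM, 3.79% in PVAT-CM and 3.17% in control-CM, with control-CM between the other media. MT-ND2 took 4.43% in PPAT-CM, 5.43% in PVAT-CM and 5.21% in control-CM. MT-CO1 kept about the same part in each library, with 25.4% in PPAT-CM, 24.5% in PVAT-CM and 25.3% in control-CM.

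Levels per length, as TMM-scaled CPM (counts per library of a standard size) per kilobase of annotated gene, allow an order of genes by counts within each library. What the mRNA kit caught of rRNAs, and of MT-ND6 mRNA without a tail, was not measured, so their places are not abundances in the cell. MT-RNR2 led with 25860 in PPAT-CM, 35915 in PVAT-CM and 53299 in control-CM. The 3 complex IV mRNAs followed in the same order in all libraries, MT-CO3 with 18857 in PPAT-CM, 24740 in PVAT-CM and 39019 in control-CM, then MT-CO1 with 15824, 22717 and 38740 in those media, then MT-CO2 with 12931, 21525 and 36412. MT-CO3 and MT-CO1 stood close in control-CM and apart in PPAT-CM. MT-ATP8 was the lowest of the 15 in every library, with 2465 in PPAT-CM, 3608 in PVAT-CM and 5841 in control-CM.

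The middle of the order changed between media. MT-ND3 had rank 8 in PPAT-CM at 7134, rank 5 in PVAT-CM at 15690 and rank 6 in control-CM at 21626, where its interval overlapped that of MT-ATP6 at 21417. MT-ND1 stood above MT-ND2 in PPAT-CM, at 5452 against 4087. Their intervals overlapped in PVAT-CM (7520 for MT-ND1 and 7457 for MT-ND2) and in control-CM (11808 for MT-ND1 and 11818 for MT-ND2). The level of MT-RNR1, an rRNA, was 6498 in PPAT-CM, 10573 in PVAT-CM and 16745 in control-CM, near that of MT-CYB with 6596, 10070 and 17464 in those media. All other neighbours in the order differed beyond their counting intervals except MT-ND6 and MT-ND5 in PVAT-CM.

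**Figure D3:**
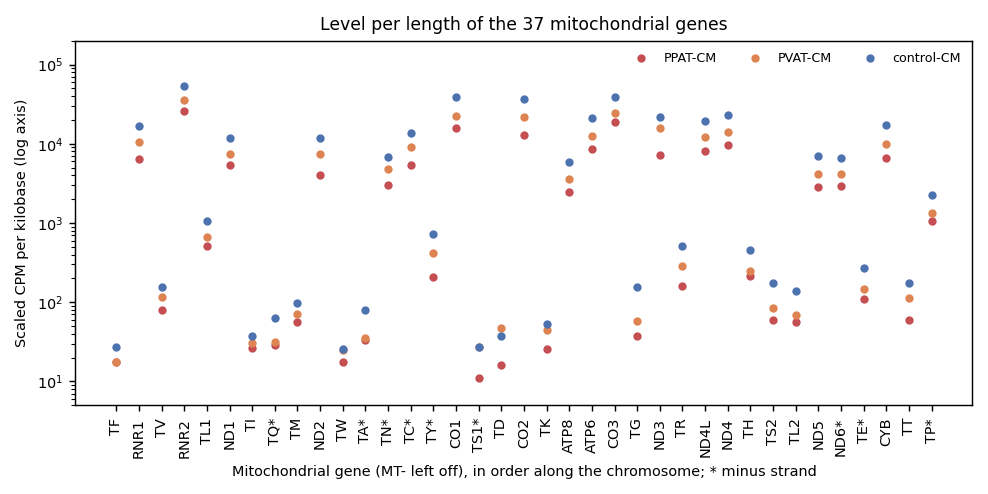
TMM-scaled CPM per kilobase of annotated gene (log axis) for the 37 mitochondrial genes in order along the chromosome in PPAT-CM, PVAT-CM and control-CM, 1 library each, with asterisks on minus-strand genes. Each of the 15 mRNAs and rRNAs is lowest in PPAT-CM and highest in control-CM, and most tRNAs lie far below them, with MT-TC and MT-TN the highest tRNAs.

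The rRNAs of the mitochondrial ribosome were lower in PPAT-CM and PVAT-CM too, but not by the same amount. MT-RNR1, the rRNA of the small subunit, had 113653 counts in PPAT-CM, 143384 in PVAT-CM and 241598 in control-CM, 2.58-fold lower in PPAT-CM (2.56 to 2.60) and 1.58-fold lower in PVAT-CM than in control-CM. MT-RNR2, the rRNA of the large subunit, had 739180 counts in PPAT-CM, 795948 in PVAT-CM and 1256682 in control-CM, 2.06-fold lower in PPAT-CM (2.06 to 2.07) and 1.48-fold lower in PVAT-CM than in control-CM (1.48 to 1.49). The MT-RNR2 to MT-RNR1 count ratio within each library, which needs no scaling, was 6.50 in PPAT-CM, 5.55 in PVAT-CM and 5.20 in control-CM.

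Set against the summed mRNAs, the summed rRNAs differed less between PPAT-CM and control-CM, which holds for MT-RNR2 and not for MT-RNR1. Together the 2 rRNAs were 2.13-fold lower in PPAT-CM than in control-CM (2.12 to 2.14), against 2.46-fold for the summed mRNAs (2.45 to 2.46), and the tRNAs were 2.42-fold lower (2.37 to 2.47). The rRNA to mRNA count ratio was 0.484 in PPAT-CM, 0.461 in PVAT-CM and 0.419 in control-CM. In PVAT-CM against control-CM the summed mRNAs were 1.65-fold lower and the tRNAs 1.52-fold (1.49 to 1.55), while the rRNAs had a log2 ratio of -0.58, just short of 1.5-fold. That tRNA value followed MT-TC and MT-TN: the other tRNAs were 1.69-fold lower (1.62 to 1.76), near the mRNAs. For PPAT-CM against PVAT-CM the classes stood in another order, with the tRNAs 1.59-fold lower (1.56 to 1.63), the mRNAs 1.49-fold and the rRNAs 1.42-fold. Without MT-TC and MT-TN the tRNAs were 1.38-fold lower (1.32 to 1.44), which is last of the classes. The value for the rRNAs covers unequal members: MT-RNR1 was 1.63-fold lower (1.61 to 1.64) and MT-RNR2 1.39-fold lower in PPAT-CM against PVAT-CM.

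Strand made little difference among the mRNAs. MT-ND6, a complex I subunit and the only mRNA of the minus strand, had 27873 counts in PPAT-CM, 31375 in PVAT-CM and 52338 in control-CM. It was 2.28-fold lower in PPAT-CM (2.24 to 2.31) and 1.57-fold lower in PVAT-CM than in control-CM (1.55 to 1.59). Its log2 ratio lay above the median of the 12 plus-strand mRNAs by 0.11 for PPAT-CM over control-CM, by 0.06 for PVAT-CM over control-CM and by 0.02 for PPAT-CM over PVAT-CM, all within the SD among the 13. Of the 12 plus-strand mRNAs, 2 had a higher log2 ratio than MT-ND6 for PPAT-CM over control-CM, 1 for PVAT-CM over control-CM and 3 for PPAT-CM over PVAT-CM.

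MT-ND6 lies end to end with MT-ND5 on opposite strands, and the count ratio of MT-ND6 to MT-ND5 was 0.295 in PPAT-CM, 0.291 in PVAT-CM and 0.273 in control-CM. Per kilobase the level of MT-ND6 was 1.02 times that of MT-ND5 in PPAT-CM, 1.00 times in PVAT-CM and 0.941 times in control-CM. MT-ND6 mRNA is known to lack a poly(A) tail, and how much of it the mRNA kit caught was not measured. The strand option of the authors' read counting was not stated in the sources used here. Without strand, reads from the RNA opposite a gene would count toward the gene, and the values for minus-strand rows carry that limit.

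Position along the chromosome showed no steady trend. Over the 12 plus-strand mRNAs Spearman's rho between log2 ratio and gene start was -0.08 for PPAT-CM over control-CM, -0.31 for PVAT-CM over control-CM and -0.24 for PPAT-CM over PVAT-CM, given as a description of genes that share a precursor and a library. The first 6 and the last 6 of these genes had median log2 ratios of -1.31 and -1.29 for PPAT-CM over control-CM and of -0.73 and -0.71 for PVAT-CM over control-CM. Neighbours could differ more than the ends did: MT-CO3 and MT-ND3, separated only by MT-TG, stood at -1.05 and -1.60 for PPAT-CM over control-CM. The MT-CO3 to MT-ND3 count ratio was 5.99 in PPAT-CM, 3.57 in PVAT-CM and 4.09 in control-CM. The rho with gene length was -0.02, with GC content 0.38 and with mean count 0.08 for PPAT-CM over control-CM. It was -0.35 with length, -0.20 with GC content and -0.46 with mean count for PVAT-CM over control-CM, and 0.13, 0.53 and 0.34 for PPAT-CM over PVAT-CM.

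The 6 mRNAs annotated with a partial stop codon were MT-ND1, MT-ND2, MT-CO3, MT-ND3, MT-ND4 and MT-CYB. MT-ATP6 was counted among the other 7, annotated with a full one, although its last base is also the first base of MT-CO3. This split was not among the planned comparisons. In it the 6 had a wider spread than these 7. Their log2 ratios for PPAT-CM over control-CM had an SD of 0.22 and spanned -1.60 (MT-ND3) to -1.05 (MT-CO3), both ends of the range of the 13. The SD among the 7 with a full stop codon was 0.10. The medians were -1.34 for the partial and -1.29 for the full stop codons. For PVAT-CM over control-CM the medians were -0.66 and -0.74 with SDs of 0.11 and 0.05, and for PPAT-CM over PVAT-CM they were -0.58 and -0.55 with SDs of 0.28 and 0.07. Tail lengths were not measured by these counts.

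Summed, the tRNA rows, 59 to 75 bases long, had far fewer counts per kilobase than the mRNAs, and those on the minus strand had most of them. MT-TC and MT-TN were exceptions, with levels of 5376 and 3000 TMM-scaled CPM per kilobase in PPAT-CM, above several mRNAs. Summed over rows and divided by annotated length, the 22 tRNAs stood at 508 TMM-scaled CPM per kilobase in PPAT-CM, 809 in PVAT-CM and 1231 in control-CM, beside 8441, 12565 and 20731 for the mRNAs in those media. The 8 tRNAs of the minus strand stood at 1218 in PPAT-CM, 1973 in PVAT-CM and 2970 in control-CM, and the 14 of the plus strand at 98.6 in PPAT-CM, 137 in PVAT-CM and 227 in control-CM. The gap between strands came mostly from MT-TC and MT-TN: without them the other 6 minus-strand rows stood at 239 in PPAT-CM, 327 in PVAT-CM and 562 in control-CM. Most counts of these 6 rows were in turn on MT-TP, with 1324 of 1809 in PPAT-CM, 1285 of 1918 in PVAT-CM and 2323 of 3509 in control-CM. Per kilobase in PPAT-CM, MT-TP stood at 1062 and the rest of the 6 between 11.1 (MT-TS1) and 207 (MT-TY). With MT-TC and MT-TN included, minus-strand rows held 87.7% of the tRNA counts in PPAT-CM, 89.3% in PVAT-CM and 88.3% in control-CM. Whether these reads came from mature tRNAs, from uncut precursors or from neighbouring transcripts was not tested.

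A pair of rows made up most of the tRNA counts. MT-TC had 6505 counts in PPAT-CM, 8586 in PVAT-CM and 13675 in control-CM, and MT-TN had 4016 in PPAT-CM, 4977 in PVAT-CM and 7612 in control-CM. The genes flank a 31-base gap that is known as the origin where synthesis of the other DNA strand begins. Together they held 74.8% of tRNA counts in PPAT-CM, 78.2% in PVAT-CM and 75.8% in control-CM, so sums over tRNAs mainly follow them. MT-TC was 2.55-fold lower in PPAT-CM (2.47 to 2.63) and had a log2 ratio of -0.58 for PVAT-CM over control-CM. MT-TN was 2.30-fold lower in PPAT-CM (2.21 to 2.39) and 1.44-fold lower in PVAT-CM than in control-CM (1.39 to 1.49).

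Next in count came MT-TP, the proline tRNA beside the control region, with 1324 counts in PPAT-CM, 1285 in PVAT-CM and 2323 in control-CM, 2.13-fold lower in PPAT-CM than in control-CM (1.99 to 2.28). MT-TL1, which follows the rRNA genes, had 708 counts in PPAT-CM, 707 in PVAT-CM and 1204 in control-CM, 2.06-fold lower in PPAT-CM than in control-CM (1.88 to 2.27). MT-TY, the tyrosine tRNA that abuts MT-TC, had 251 counts in PPAT-CM, 395 in PVAT-CM and 725 in control-CM. Its difference was wider than that of MT-TC, at 3.50-fold lower in PPAT-CM (3.03 to 4.06) and 1.73-fold lower in PVAT-CM than in control-CM (1.52 to 1.96).

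The tRNAs on either side of MT-ND3 were also far lower in PPAT-CM. MT-TG, the glycine tRNA between MT-CO3 and MT-ND3, had 46 counts in PPAT-CM, 56 in PVAT-CM and 158 in control-CM, 4.16-fold lower in PPAT-CM (2.98 to 5.92) and 2.65-fold lower in PVAT-CM than in control-CM (1.94 to 3.66). MT-TR, the arginine tRNA between MT-ND3 and MT-ND4L, had 192 counts in PPAT-CM, 262 in PVAT-CM and 506 in control-CM, 3.19-fold lower in PPAT-CM (2.70 to 3.79) and 1.82-fold lower in PVAT-CM than in control-CM (1.56 to 2.12). The 2 tRNAs thus did not follow MT-ND3 in PVAT-CM, where that mRNA was 1.38-fold lower than in control-CM.

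The other named tRNA rows had between 18 and 477 counts. The cluster of MT-TH, MT-TS2 and MT-TL2 before MT-ND5 had log2 ratios of -1.11, -1.55 and -1.29 for PPAT-CM over control-CM, and MT-TV between the rRNA genes had -0.96. MT-TE, MT-TT, MT-TA and MT-TQ stood at -1.29, -1.52, -1.23 and -1.11, and MT-TM and MT-TK at -0.77 and -1.05. MT-TD had 20 counts in PPAT-CM, 46 in PVAT-CM and 39 in control-CM, and its interval for PVAT-CM against control-CM included no difference. MT-TF had 23 counts in PPAT-CM, 18 in PVAT-CM and 29 in control-CM, and MT-TI had 33 in PPAT-CM, 30 in PVAT-CM and 39 in control-CM. The remaining 2 rows, MT-TW and MT-TS1, had between 14 and 28 counts per library.

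Counting all 22 tRNAs, 20 were at least 1.5-fold lower in PPAT-CM than in control-CM, 13 in PVAT-CM than in control-CM and 9 in PPAT-CM than in PVAT-CM, and none was 1.5-fold higher in any of these comparisons. Of all measured genes, 8.71%, 3.49% and 6.07% were at least 1.5-fold lower in those comparisons. The 2 exceptions in PPAT-CM against control-CM were MT-TI and MT-TW, the second of which is named here after its values were seen. At these depths the intervals of 3 tRNAs included no difference in PPAT-CM against control-CM, 7 in PVAT-CM against control-CM and 9 in PPAT-CM against PVAT-CM. Of the 22, 15 had a mean count of at least 50 and enter the measured genes above. Without MT-TC and MT-TN the summed log2 ratio was -1.22 for PPAT-CM over control-CM, -0.75 for PVAT-CM over control-CM and -0.46 for PPAT-CM over PVAT-CM, the last of which is short of 1.5-fold.

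**Figure D4:**
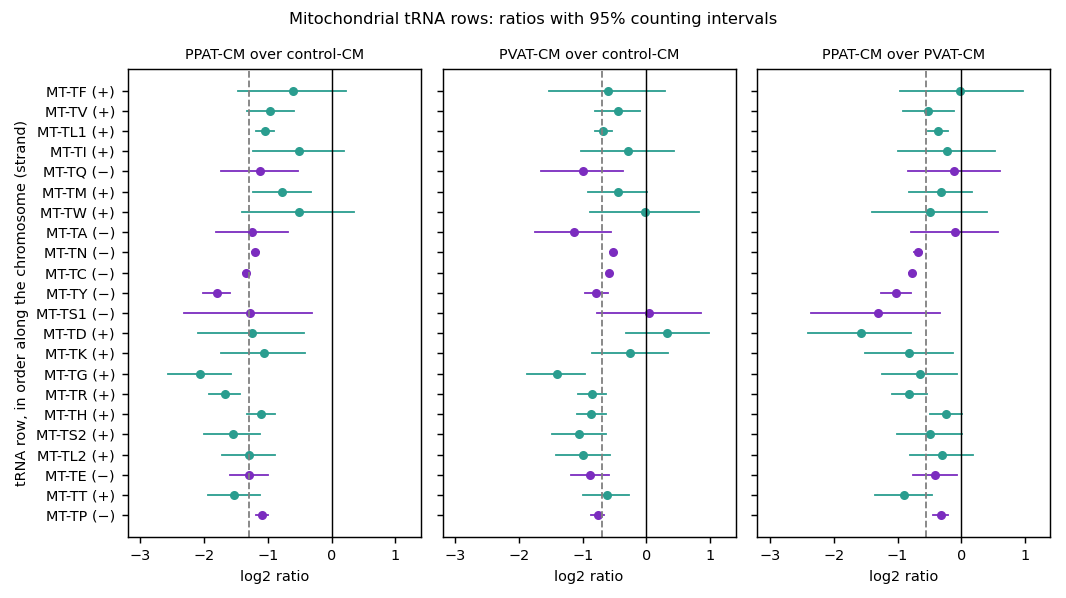
Log2 ratios of TMM-scaled counts for the 22 tRNA rows in order along the mitochondrial chromosome, with 95% counting intervals, for PPAT-CM over control-CM, PVAT-CM over control-CM and PPAT-CM over PVAT-CM, with a dashed line at the median of the mRNAs and strand given by sign and colour. Intervals are narrow for MT-TC and MT-TN, with 6505 and 4016 counts in PPAT-CM, and wide for rows such as MT-TD with 20.

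The 6 chromosome 1 copies lie in order on the plus strand from chr1:629062 to chr1:634922 in GRCh38, and all were lower in PPAT-CM than in control-CM. MTATP6P1 (chr1:633696-634376), a copy of MT-ATP6, had 20346 counts in PPAT-CM, 21824 in PVAT-CM and 39727 in control-CM, and held 90.7% of the counts of the 6 copies in PPAT-CM and 89.9% in PVAT-CM, with a like share in control-CM. It ranked 72nd of all rows in PPAT-CM, 46th in PVAT-CM and 22nd in control-CM. It was 2.37-fold lower in PPAT-CM (2.33 to 2.41) and 1.71-fold lower in PVAT-CM than in control-CM (1.68 to 1.74), close to its counterpart MT-ATP6 at 2.51-fold and 1.72-fold.

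MTCO1P12 (chr1:631074-632616) had 1825 counts in PPAT-CM, 2061 in PVAT-CM and 3763 in control-CM, 2.50-fold lower in PPAT-CM (2.36 to 2.64) and 1.72-fold lower in PVAT-CM than in control-CM (1.63 to 1.81), beside 2.45-fold and 1.71-fold for MT-CO1. MTND2P28 (chr1:629640-630683) had 189 counts in PPAT-CM, 298 in PVAT-CM and 504 in control-CM, 3.23-fold lower in PPAT-CM (2.73 to 3.84) and 1.59-fold lower in PVAT-CM than in control-CM (1.37 to 1.84). Its counterpart MT-ND2, which was among the mRNAs that differed most, stood at 2.89-fold and 1.58-fold. In these 3 copies the ratios followed those of the mitochondrial genes they were copied from.

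The other 3 copies had few reads. MTND1P23 (chr1:629062-629433), MTCO2P12 (chr1:632757-633438) and MTCO3P12 (chr1:634376-634922) had between 25 and 29 counts in PPAT-CM, 28 and 37 in PVAT-CM and 37 and 54 in control-CM. Their ratios had wide intervals: MTCO2P12 was 1.79-fold lower in PPAT-CM than in control-CM (1.05 to 3.11) while MT-CO2 was 2.82-fold lower, and for MTND1P23 and MTCO2P12 the PVAT-CM against control-CM intervals included no difference. Of the 6 copies, 3 had a mean count of at least 50, and by at least 1.5-fold 6 were lower in PPAT-CM than in control-CM, 4 in PVAT-CM than in control-CM and 3 in PPAT-CM than in PVAT-CM, beside 8.71%, 3.49% and 6.07% of all measured genes.

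Expressed per 1000 counts of the mitochondrial counterpart, the copies differed widely from each other, and less between media. MTATP6P1 had 191 counts per 1000 of MT-ATP6 in PPAT-CM (188 to 194), 181 in PVAT-CM (179 to 184) and 180 in control-CM (178 to 182). MTCO1P12 had 4.08 per 1000 of MT-CO1 in PPAT-CM, 4.14 in PVAT-CM and 4.17 in control-CM, and MTND2P28 had 2.42 per 1000 of MT-ND2 in PPAT-CM, 2.70 in PVAT-CM and 2.71 in control-CM. MTND1P23 had 0.303 in PPAT-CM, 0.362 in PVAT-CM and 0.281 in control-CM. MTCO2P12, with few reads, varied most between media, with 0.154 in PPAT-CM (0.0998 to 0.228), 0.162 in PVAT-CM (0.112 to 0.227) and 0.0982 in control-CM (0.0692 to 0.135), and MTCO3P12 had 0.107, 0.102 and 0.117 in those media.

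**Figure D5:**
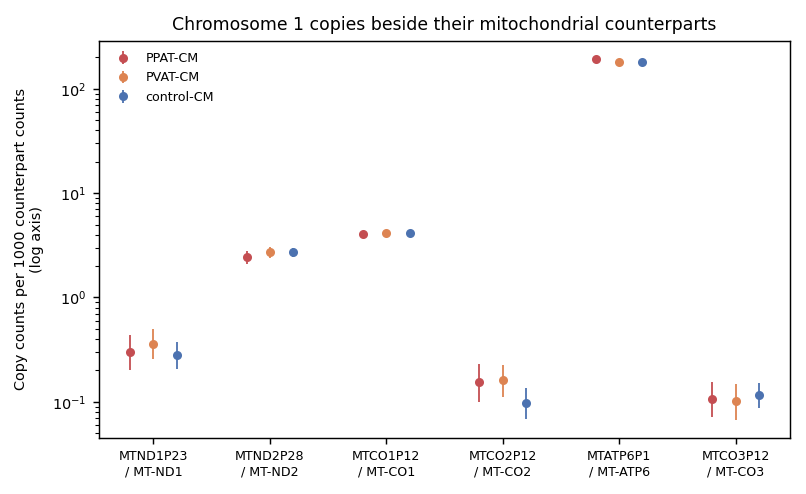
Counts of each chromosome 1 copy per 1000 counts of its mitochondrial counterpart (log axis) in PPAT-CM, PVAT-CM and control-CM, with 95% counting intervals. MTATP6P1 stands at 180 to 191 in all 3 libraries, MTCO1P12 and MTND2P28 between 2.42 and 4.17, and the other 3 copies at or below 0.362.

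In the reference genome, the sequences of the copies did not order their read counts. Identities and shared stretches were taken against the reference mitochondrial chromosome, and the one that LNCaP carries was not examined. Identity with the counterpart over the aligned bases was 99.1% for MTND1P23, 98.7% for MTCO1P12, 98.5% for MTATP6P1, 98.4% for MTND2P28 and 98.2% for both MTCO2P12 and MTCO3P12. The longest stretch without a difference was 266 bases in MTND2P28, 245 in MTCO1P12, 158 in MTND1P23, 141 in MTATP6P1, 124 in MTCO3P12 and 108 in MTCO2P12. Among 50-base windows of the copy, 46.7% of those of MTATP6P1 occurred unchanged in MT-ATP6, against 45.2% for MTCO3P12 in MT-CO3. MTCO3P12 had far fewer reads. With 100-base windows the shares were 11.9% for MTATP6P1 and 6.70% for MTCO3P12. With 150-base windows they were 0% for both, beside 15.6% for MTND2P28 and 14.5% for MTCO1P12. A read from a window that occurs unchanged in the counterpart cannot be placed by its sequence. The read length and the handling of reads with several matches were not stated in the sources used, so how many copy counts came from mitochondrial RNA was not tested.

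Nuclear copies elsewhere had few reads. The other 401 rows named as copies of mitochondrial genes summed to 433 counts in PPAT-CM, 344 in PVAT-CM and 419 in control-CM, with any count in 31, 26 and 29 rows. MTATP8P1, which lies between MTCO2P12 and MTATP6P1 on chromosome 1, had 0 counts in PPAT-CM, 1 in PVAT-CM and 0 in control-CM. MTND4P20 had its highest count in PPAT-CM, with 295 counts in PPAT-CM, 202 in PVAT-CM and 158 in control-CM, while MTND4P12 had 28 in PPAT-CM, 37 in PVAT-CM and 77 in control-CM. These rows were named after their values were seen.

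Nuclear genes that make mitochondrial RNA were not lower as a group. Of 18 factors of mitochondrial transcription and replication, 0 were at least 1.5-fold lower and 2 at least 1.5-fold higher in PPAT-CM than in control-CM, where 20.7% of measured genes were past 1.5-fold one way or the other, with a median log2 ratio of 0.16. TFB2M, the factor that opens the promoter for the polymerase, had 434 counts in PPAT-CM, 216 in PVAT-CM and 170 in control-CM, 2.11-fold higher in PPAT-CM than in control-CM (1.76 to 2.53). TEFM, the elongation factor, was the other, at 1.55-fold higher (1.14 to 2.12). TFAM, which packs the DNA and starts transcription, had 1246 counts in PPAT-CM, 876 in PVAT-CM and 770 in control-CM, a ratio of 1.33 for PPAT-CM over control-CM (1.22 to 1.46). POLRMT, the polymerase itself, had 1508 counts in PPAT-CM, 1490 in PVAT-CM and 1689 in control-CM, 1.36-fold lower in PPAT-CM (1.27 to 1.46) and short of the threshold.

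Of 28 factors of mitochondrial RNA processing, stability and decay, 27 were measured, of which 0 were at least 1.5-fold lower and 4 at least 1.5-fold higher in PPAT-CM than in control-CM, with a median log2 ratio of 0.07. That is no larger a share than the 20.7% of measured genes past 1.5-fold either way. REXO2, which degrades the shortest RNA fragments, had 4085 counts in PPAT-CM, 1681 in PVAT-CM and 1666 in control-CM, 2.02-fold higher in PPAT-CM than in control-CM (1.91 to 2.14). PRORP, the nuclease of mitochondrial RNase P that cuts tRNA 5′ ends, had 109 counts in PPAT-CM, 47 in PVAT-CM and 48 in control-CM, 1.87-fold higher (1.32 to 2.69). The other 2, named after their values were seen, were the RNA methyltransferases MRM3 and TRMT61B, with log2 ratios of 0.73 and 0.72. LRPPRC and SLIRP, which together stabilise mitochondrial mRNAs, had ratios of 1.04 (0.963 to 1.13) and 1.17 (1.09 to 1.26) for PPAT-CM over control-CM. In PVAT-CM against control-CM, 1 of these 27 was lower and 1 higher by 1.5-fold, where 6.64% of measured genes were past it either way, and 1 of the 18 transcription and replication factors was lower. They were FASTKD1, an RNA-binding protein (1.55-fold lower, 1.33 to 1.80), MRM3, an rRNA methyltransferase (1.52-fold higher, 1.22 to 1.92), and DNA2, a DNA nuclease and helicase (2.06-fold lower, 1.47 to 2.90), all named after their values were seen.

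The nuclear-encoded partners of the mitochondrial subunits had medians near 0. Of 71 nuclear genes for subunits of complexes I, III, IV and V, 70 were measured, with a median log2 ratio of 0.00 for PPAT-CM over control-CM, 0.09 for PVAT-CM over control-CM and -0.10 for PPAT-CM over PVAT-CM. By at least 1.5-fold, 7 were lower and 9 higher in PPAT-CM than in control-CM, where 20.7% of measured genes were past it either way, a share near that of the list. In PVAT-CM 0 were past it either way against control-CM, where 6.64% of measured genes were, and 2 lower and 1 higher in PPAT-CM than in PVAT-CM, where 14.6% of measured genes were past it either way. Those 3 were UQCRFS1 (higher) and COX6A1 and ATP5ME (lower, log2 ratios of -0.75 and -0.84), the lower ones named after their values were seen. UQCRFS1, the iron-sulfur subunit of complex III, had 1577 counts in PPAT-CM, 755 in PVAT-CM and 545 in control-CM, 2.39-fold higher in PPAT-CM than in control-CM (2.16 to 2.64), while MT-CYB of the same complex was 2.65-fold lower. NDUFAB1, the acyl carrier protein that is part of complex I, had 1876 counts in PPAT-CM, 1102 in PVAT-CM and 833 in control-CM, 1.86-fold higher in PPAT-CM than in control-CM (1.71 to 2.02). Of the 7 lower genes, ATP5ME of complex V had the lowest ratio, 1.70-fold lower in PPAT-CM than in control-CM (1.59 to 1.81). By complex, the nuclear medians for PPAT-CM over control-CM were 0.00 for complex I, 0.22 for complex III and -0.00 for complex V. Only complex IV was clearly below 0, with a median of -0.30 for its 11 nuclear subunits beside -1.29 for its 3 mitochondrial ones.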

How the data were processed

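Per the labels' protocols, RNA came from RNeasy columns and libraries from a KAPA mRNA HyperPrep kit. Per the submitters' processing notes, reads were handled with HISAT2, featureCounts, FastQC, Trimmomatic and edgeR on GRCh38. Their versions, the read length, the strand option and the treatment of multiple matches were not stated in what was used here. The authors deposited raw integer counts for each gene, for 3 libraries of 14174241 to 16965584 counts. Of its 58884 rows, 58611 matched GENCODE release 29, from which names, GRCh38 positions, lengths and sequences were taken. No per-sample column was left unused.

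Counts were scaled with TMM factors (edgeR 4.0.16), which were 1.08 in PPAT-CM, 1.01 in PVAT-CM and 0.917 in control-CM. Log2 ratios used a pseudocount of 0.5. Ratios carry exact conditional binomial (Clopper-Pearson) 95% intervals and shares exact binomial ones. The floor that 0 reads leave (3 counts) was 0.164 scaled CPM in PPAT-CM, 0.211 in PVAT-CM and 0.198 in control-CM. Measured genes had a mean count of at least 50. With 1 library per medium no test could be made, and 1.5-fold served as the threshold of size. Scripts were tested on simulated data. All mRNAs, rRNAs and copies were named, as were tRNAs with at least 50 counts in any library plus the 3 next highest, and up to 2 genes past 1.5-fold per supporting list besides TFAM, POLRMT, LRPPRC and SLIRP. Members and lists were chosen with earlier results of these data known. Copies were aligned to counterparts with Biopython 1.88. Alternatives covered scaling (DESeq2 1.42.0 size factors, upper quartile, library totals, nuclear counts), filters, thresholds and the members summed.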

Additional observations from a re-analysis of the deposited data

How the results depend on the processing

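Of 183 alternative values, 140 were labelled the same as the main value, and no log2 ratio turned its direction. A log2 ratio counted as the same if it kept its side of 1.5-fold. A count of mRNAs or a share of genes had to stay within 1.5 times the main value. Shares of library or mRNA counts had to stay within the counting interval of the main value. The tally is no measure of robustness, since some labels were nearly fixed in advance. Leaving out copies with few counts could hardly move their sum, and every share left its narrow interval when the rows changed. For PPAT-CM over control-CM every mitochondrial result, from mRNAs, rRNAs and tRNAs to copies, kept its side under all alternatives, with the mRNA median between -1.37 and -1.05. The other comparisons lie near 1.5-fold. Library totals, in which the mitochondrial counts themselves weigh, moved the median log2 ratio of all measured genes to 0.27 for PPAT-CM over control-CM, 0.15 for PVAT-CM over control-CM and 0.13 for PPAT-CM over PVAT-CM. With them in place of TMM, PVAT-CM over control-CM gave 6 mRNAs at least 1.5-fold lower (12 with TMM), an mRNA median of -0.56 and a tRNA value of -0.47, and PPAT-CM over PVAT-CM a tRNA value of -0.56. At 2-fold the counts of lower mRNAs were 0 and 1 in these comparisons, and at the lower threshold tried the second was 13. The rRNA value for PVAT-CM over control-CM, -0.58, passed 1.5-fold with upper quartile factors (-0.60), TMM without mitochondrial rows (-0.59), nuclear counts (-0.64), protein-coding nuclear counts (-0.65) and MT-RNR1 alone (-0.66). For PPAT-CM over PVAT-CM, upper quartile factors gave 10 lower mRNAs and a median of -0.61, the mean in place of the median was -0.62, MT-RNR1 alone gave -0.70, plus-strand tRNAs alone -0.47, tRNAs without MT-TC and MT-TN -0.46 (an alternative chosen after seeing the data) and copies other than MTATP6P1 -0.60. The mitochondrial share without rRNAs was 10.5% in PPAT-CM, 14.5% in PVAT-CM and 21.8% in control-CM. With the copies it was 15.6%, 21.3% and 31.1% in those media, and for mRNAs among protein-coding counts 11.3%, 15.9% and 24.6%. The MT-CO1 share of mRNA counts without MT-ATP8 and MT-ND4L was 26.2%, 25.2% and 26.1%, and with copy counts added 25.2%, 24.3% and 25.1%. Beyond scaling and membership, the cause of these shifts was not tested. No paired analysis was possible because each medium had 1 library, and for the same reason no replicate could be left out.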
